A study of Caenorhabditis elegans with 12 samples.

Results

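The mRNAs of 10 RNA-binding regulators of oocytes and early embryos were followed across 4 genotypes of *Caenorhabditis elegans*. The members were chosen by name, from their known roles and not from their levels, though with earlier results of these data known. The list is *gld-1* (T23G11.3), *lin-41* (C12C8.3), *oma-1* (C09G9.6), *oma-2* (ZC513.6), *mex-3* (F53G12.5), *mex-5* (W02A2.7), *mex-6* (AH6.5), *pos-1* (F52E1.1), *pie-1* (Y49E10.14) and *spn-4* (ZC404.8). They are 10 of the 46653 gene identifiers in the table, and all 10 were among the 16741 genes that passed the filter on low counts. The groups were wild-type N2 (WT), *rde-4(ne301)*, *age-1(hx546)* and the double mutant *age-1(hx546); rde-4(ne301)*, with 3 independent populations of whole young adult worms each, grown at 20 °C on OP50 bacteria and collected on the first day of adulthood before embryos could be seen. RDE-4 is a double-stranded RNA-binding protein that works with Dicer in RNA interference, and AGE-1 is the phosphatidylinositol 3-kinase of the insulin/IGF-1 signaling pathway, which the *hx546* allele lowers only moderately. No tissue was isolated, so a lower level could come, among other things, from fewer germ cells or from less RNA per cell. These cannot be told apart in whole worms.

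In the hermaphrodite gonad, germ cells enter meiosis, pass through a long prophase and grow into oocytes that are loaded with maternal mRNA. Transcription stops in the fully grown oocyte, so the proteins that bind these mRNAs decide when and where each is translated, first in the oocyte and then in the early embryo. GLD-1 acts in early meiosis, LIN-41 and the OMA proteins act during oocyte growth and maturation, and the MEX, POS-1, PIE-1 and SPN-4 proteins act in the polarity and cell fates of the early embryo. Much of their control lies in translation and protein turnover, neither of which these libraries measure.

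The 12 libraries held 74501098 to 82446102 counts each, and a member had 2566 to 58076 counts in a library, so counting error alone was 0.415% to 1.97% of a value. As a check of the labels for the *rde-4* mutation, *rde-4* was at 163 to 201 CPM (counts in each 1000000 of the library, with library totals scaled by TMM) in the WT libraries. It was at 28.7 to 32.0 CPM in those of *rde-4*, 138 to 149 CPM in those of *age-1* and 25.4 to 29.8 CPM in those of the double mutant. The *age-1* label was not checked in this way. *age-1* mRNA overlapped between WT (129 to 158 CPM) and *age-1* (128 to 137 CPM). One library stood apart. The *age-1; rde-4* replicate 1 had the lowest level of all 10 members, while 22.96% of all genes tested were lowest there. Its members were at 45.6% (*lin-41*) to 73.1% (*pos-1*) of the mean of the other 11 libraries, with a median of 62.2%. The members' fold changes in comparisons that include the double mutant are also given without it, gene by gene against WT and as summaries elsewhere. So are the order of their levels and the correlations over all pairs of members. The test for any difference among genotypes and the tests of the paralogs were not repeated with that library alone left out.

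None of the 10 mRNAs passed the test in any comparison. At an adjusted p under 0.05 (edgeR's quasi-likelihood test, adjusted by Benjamini and Hochberg over 16741 genes), 0 of 10 members differed in *rde-4* against WT, where 4.49% of all genes tested did. The same count of 0 was found in *age-1* against WT (14.8% of all genes), in *age-1; rde-4* against WT (12.1%), in *age-1; rde-4* against *age-1* (0.424%), in *age-1; rde-4* against *rde-4* (1.59%) and for the interaction of the mutations (0.113%). A test for any difference among the 4 genotypes called 12.1% of all genes and 0 members, the lowest adjusted p being that of *spn-4*, 0.259. Before adjustment, edgeR gave a p under 0.05 for 1 member in *age-1* against WT (*pos-1*), for 1 in *age-1; rde-4* against WT (*spn-4*) and for 0 in the others. Of the 16741 genes tested, 5564 and 4434 had a p that low in these 2 comparisons. In the other comparisons 1849 to 2415 did. DESeq2 also called 0 members in each of the 6 comparisons.

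**Figure D1:**
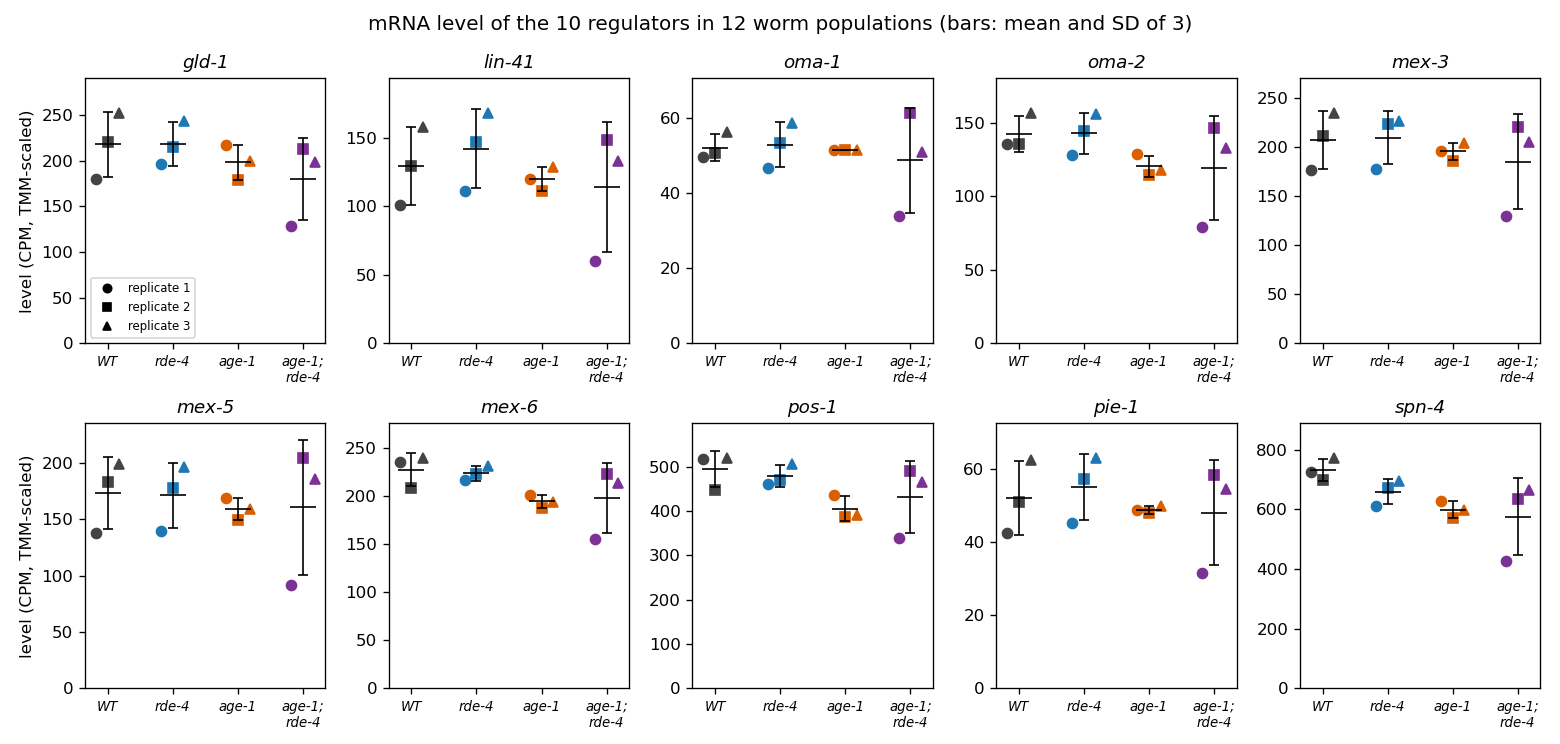
Level of each member in CPM (TMM-scaled, axis from 0) in the 12 libraries, with 1 point per population, its shape giving the replicate number, and bars for the mean and SD of 3. In every panel the circle of *age-1; rde-4* (replicate 1) is the lowest of the 12 points, for example 60.3 CPM for *lin-41* against 101 CPM or more in the other libraries.

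*gld-1* encodes a KH-domain protein of the STAR family that represses the translation of many maternal mRNAs in early meiotic prophase and keeps germ cells from returning to mitosis. It lies on chromosome I at 7695681-7698222 (WBcel235, forward strand). Its level was 180, 221 and 252 CPM in the 3 WT populations and 196, 215 and 244 CPM in *rde-4*. In *age-1* it was 217, 178 and 200 CPM, and in *age-1; rde-4* 129, 212 and 199 CPM. The groups overlapped in every pairing, and the range within WT was wider than the distance between any of the group means. The log2 fold change was 0.00 (SE 0.18) in *rde-4*, −0.13 (SE 0.18) in *age-1* and −0.27 (SE 0.18) in *age-1; rde-4* against WT, with adjusted p of 0.998, 0.642 and 0.358. The last value was −0.08 without the low library (SE 0.13, adjusted p = 0.746).

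*lin-41* encodes a TRIM-NHL protein that holds oocytes in prophase and opposes early maturation, and that is also known as a target of the *let-7* microRNA in the epidermis. The gene lies on chromosome I at 9334800-9342496 on the reverse strand and has 4 annotated transcripts. Its WT populations were at 101, 129 and 157 CPM, and those of *rde-4* at 111, 147 and 168 CPM. The *age-1* populations were closer together, at 120, 111 and 129 CPM, and those of *age-1; rde-4* were at 60.3, 149 and 133 CPM. It had the widest range of the members, 2.78-fold between the lowest and the highest library, and the groups overlapped. The widest intervals were also its own. Against WT the log2 fold change was 0.13 (SE 0.27, 95% interval −0.46 to 0.73) in *rde-4*, −0.11 (SE 0.27, −0.70 to 0.49) in *age-1* and −0.18 (SE 0.27, −0.78 to 0.41) in *age-1; rde-4*. The double mutant's value without the low library was 0.12 (SE 0.17), so its sign rested on that library.

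*oma-1* encodes a CCCH zinc-finger protein that, redundantly with OMA-2, is needed for oocyte maturation, and that binds maternal mRNAs until it is degraded after the first division. It was found on chromosome IV at 8888976-8890999, forward strand. Levels were 49.6, 50.6 and 56.2 CPM in WT and 46.7, 53.3 and 58.7 CPM in *rde-4*. They were 51.5 CPM in each of the 3 *age-1* populations and 33.8, 61.3 and 51.003 CPM in *age-1; rde-4*, which thus held both the lowest and the highest of the 12 libraries. The mean was 52.1 ± 3.57 CPM (SD, n = 3) in WT and 51.5 ± 0.0248 CPM (SD, n = 3) in *age-1*, which on the log2 scale differ by −0.02 (SE 0.17, adjusted p = 0.959). For *age-1; rde-4* against WT it was −0.10 (SE 0.17), and 0.10 (SE 0.11) without the low library.

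*oma-2*, the paralog of *oma-1*, is on chromosome V at 8029439-8031214, forward strand. The WT populations measured 135, 136 and 157 CPM and the *rde-4* populations 128, 144 and 156 CPM. All 3 *age-1* populations (129, 115 and 118 CPM) were below the lowest of WT, whereas *age-1; rde-4* (79.2, 146 and 133 CPM) overlapped with it. The log2 fold change in *age-1* was −0.24 (SE 0.18, 95% interval −0.63 to 0.15, adjusted p = 0.373), a 0.845-fold level. In *age-1; rde-4* against WT it was −0.26 (SE 0.18, adjusted p = 0.398), and −0.03 (SE 0.10) without the low library.

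*mex-3* encodes a KH-domain protein that represses, among others, the mRNA of the posterior fate gene *pal-1* in oocytes and in anterior cells of the embryo. It spans 127285-134270 on the forward strand of chromosome I, with 5 annotated transcripts. It was at 176, 211 and 234.7 CPM in WT and 178, 223 and 226 CPM in *rde-4*. In *age-1* the values were 196, 186 and 204 CPM, inside the range of WT, and in *age-1; rde-4* 130, 220 and 205 CPM. Differences from WT on the log2 scale were 0.01 (SE 0.18), −0.09 (SE 0.18) and −0.16 (SE 0.18) for *rde-4*, *age-1* and the double mutant, and the last was 0.04 (SE 0.12) without the low library.

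*mex-5* and *mex-6* encode closely related CCCH zinc-finger proteins that pass the anterior-posterior polarity of the zygote on to the cytoplasm, where they clear germ plasm proteins from the anterior. *mex-5* lies on chromosome IV at 13353723-13356104 and *mex-6* on chromosome II at 9524174-9526359, both on the forward strand. As paralogs may share reads, their separate levels carry that uncertainty, and the same holds for *oma-1* and *oma-2*.

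For *mex-5* the WT populations were at 137, 183 and 199 CPM and the *rde-4* populations at 139, 178 and 196 CPM. Those of *age-1* were at 169, 150 and 159 CPM, within the range of WT, and those of *age-1; rde-4* at 91.9, 204 and 185 CPM, so that the double mutant spanned the whole range of the 12 libraries. Against WT the log2 fold change was −0.02 (SE 0.24) in *rde-4*, −0.12 (SE 0.24) in *age-1* and −0.11 (SE 0.24) in *age-1; rde-4*, with adjusted p of 0.993, 0.763 and 0.814. Without the low library, the value of the double mutant was 0.17 (SE 0.15), on the other side of 0.

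*mex-6* varied less. It was measured at 235.3, 208 and 240 CPM in WT and at 216, 223 and 232 CPM in *rde-4*. In *age-1* it was at 201, 188 and 194 CPM, all below WT, and in *age-1; rde-4* at 156, 223 and 214 CPM, which overlapped with WT. Its standard errors were the smallest of the members. The log2 fold change in *age-1* was −0.23 (SE 0.12, 95% interval −0.49 to 0.04, adjusted p = 0.216), a 0.854-fold level, and in *rde-4* it was −0.02 (SE 0.12, −0.29 to 0.24). In *age-1; rde-4* against WT it was −0.20 (SE 0.12, adjusted p = 0.323), and −0.06 (SE 0.09) without the low library.

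*pos-1* encodes a CCCH zinc-finger protein needed for the fates of posterior blastomeres, where it controls the translation of maternal mRNAs such as *glp-1*. The gene is short, at 8414086-8415254 on the forward strand of chromosome V. Its level was 517, 447 and 520 CPM in WT and 460, 469 and 506 CPM in *rde-4*, groups that overlapped. The *age-1* populations, at 437, 387 and 391 CPM, were all below WT, and those of *age-1; rde-4* were at 338, 491 and 466 CPM. The mean was 494 ± 40.95 CPM (SD, n = 3) in WT and 405.1 ± 27.7 CPM (SD, n = 3) in *age-1*. Their log2 fold change was −0.29 (SE 0.13, 95% interval −0.57 to −0.01), with an edgeR p of 0.046 before and 0.143 after adjustment. In *age-1; rde-4* against WT it was −0.20 (SE 0.13, adjusted p = 0.370), and −0.05 (SE 0.10) without the low library.

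*pie-1* encodes a CCCH zinc-finger protein that segregates to the germline blastomeres and keeps their transcription off. It lies on chromosome III at 12426893-12429195, forward strand, and its last 24 bases overlap *snr-6* on the other strand. The libraries were strand-specific, but whether strand was used in counting is not given in the sources used here. In CPM it was, with *oma-1*, among the least abundant members, at 42.4, 50.9 and 62.5 CPM in WT and 45.2, 57.0 and 62.9 CPM in *rde-4*. The *age-1* populations lay close together at 48.6, 47.8 and 49.8 CPM, and those of *age-1; rde-4* were at 31.5, 58.2 and 54.4 CPM. All groups overlapped with WT, with log2 fold changes of 0.09 (SE 0.21) in *rde-4*, −0.09 (SE 0.21) in *age-1* and −0.11 (SE 0.21) in *age-1; rde-4*. The last was 0.12 (SE 0.15) without the low library.

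*spn-4* encodes an RRM-domain protein that binds maternal mRNAs and is needed for spindle orientation and cell fate in the early embryo. It lies on chromosome V at 6783187-6784903, reverse strand, and shares 8 bases with ZC404.15 on the other strand. It was the most abundant member, at 725, 700 and 772 CPM in WT, and all other libraries were below these. For *rde-4* the values were 613, 673 and 693 CPM, for *age-1* they were 628, 570 and 599 CPM, and for the double mutant 427, 635 and 666 CPM. The group means were 732 ± 36.8, 660 ± 41.9, 599 ± 29.1 and 576 ± 130 CPM (SD, n = 3), a 0.901-fold, 0.818-fold and 0.786-fold level of WT in *rde-4*, *age-1* and the double mutant. None of these passed the test. The log2 fold change was −0.15 (SE 0.14, adjusted p = 0.773) in *rde-4*, −0.29 (SE 0.14, adjusted p = 0.169) in *age-1* and −0.35 (SE 0.14, 95% interval −0.65 to −0.04, edgeR p of 0.028 before and 0.134 after adjustment) in *age-1; rde-4*. Leaving out the low library, the last was −0.18 (SE 0.08, adjusted p = 0.213), still below 0.

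Loss of *rde-4* in the WT background was compared first. The members' median log2 fold change was 0.00, from −0.15 (*spn-4*) to 0.13 (*lin-41*), with 6 above 0 and 4 below, and the median of all genes tested was −0.02. Scaled to 25 germ cell genes, 8 of 10 were below 0 with a median of −0.07, beside −0.09 for all genes. With that scaling *spn-4* was at an edgeR p under 0.05 before adjustment (adjusted p = 0.206). The scaling used summed counts, which include those of *prg-1*. That gene averaged 684 CPM in the *rde-4* libraries, against a WT mean of 519 (log2 0.40, SE 0.14), while the median of the 25 genes was 0.03. How much of the shift, and of the p of *spn-4*, came from *prg-1* was not tested. Without *rde-4* replicate 3, 9 of 10 members were below 0 and their median was −0.06. Only *spn-4* had groups that did not overlap, 1 of 10 members lower, against 7.81% of all genes tested lower in this way. The 95% intervals of the members ran from −0.54 (*mex-5*) to 0.73 (*lin-41*), which bounds the differences that these 3 against 3 populations leave possible.

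For *age-1* against WT, the fitted fold changes of all 10 members were below 0, with a median of −0.13 and a range of −0.29 (*spn-4*) to −0.02 (*oma-1*), but 4 of 10 were below 0 and the median was 0.08 when libraries were scaled to the germ cell genes. That scaling moved the median of all genes tested from 0.03 to 0.23, so the members' median stayed under that of all genes. The germ cell genes were themselves lower in *age-1*, with a summed level of 3360 to 3678 CPM against 3832 to 4337 CPM in WT. Scaling to them therefore raises the other genes in *age-1*. For 4 of 10 members, *oma-2*, *mex-6*, *pos-1* and *spn-4*, the *age-1* populations were all below WT, while 17.8% of all genes tested were lower without overlap. The direction also leaned on 1 population. Without WT replicate 3, the highest of the WT populations for all 10 members, the median was −0.02 and 6 of 10 were below 0.

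The 2 most abundant members were past the threshold in this comparison only when the low *age-1; rde-4* library was left out of the shared fit, a library that is in neither group. The fold changes of *pos-1* and *spn-4* were then −0.29 (SE 0.09, adjusted p = 0.0415) and −0.29 (SE 0.07, adjusted p = 0.0229), nearly the same sizes with smaller standard errors. That fit called 2998 of 17114 genes tested in this comparison, in either direction, so 2 of 10 members lay near the share of all genes. In that fit 4 of 10 members, all lower, had an edgeR p under 0.05 before adjustment. The other 2 were *oma-2* (−0.24, SE 0.09, adjusted p = 0.0794) and *mex-6* (−0.23, SE 0.08, adjusted p = 0.0635). In the fit of all 12 libraries, 2036 of 16741 genes tested were lower at such a p. That share was not counted without the low library. The count of members was also 4 with only the groups compared, but 0 without WT replicate 3 or when scaled to the germ cell genes. Over the 20 alternatives tried, the adjusted p of *pos-1* ran from 0.0415 to 0.585 and that of *spn-4* from 0.0229 to 0.582.

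**Figure D2:**
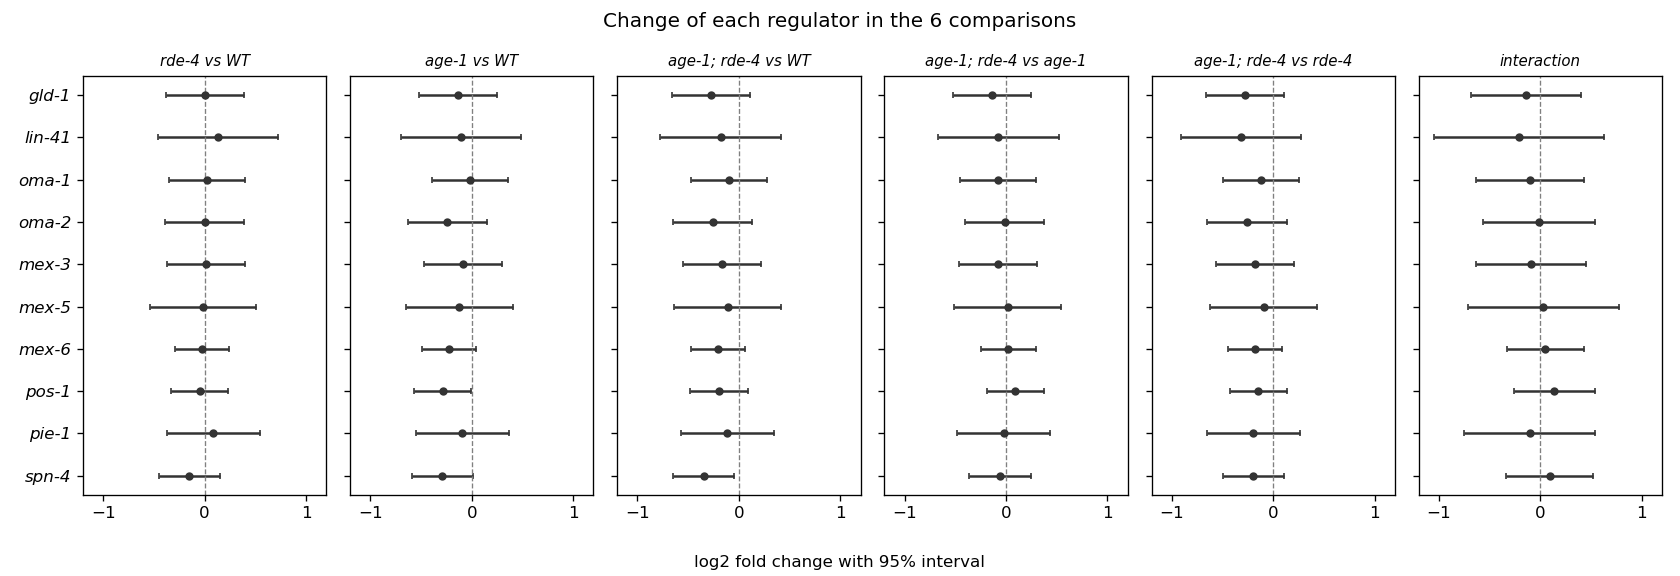
Log2 fold change of each member with its 95% interval (horizontal axis, same scale in each panel) in the 6 comparisons, from the edgeR fit of all 12 libraries. Most intervals hold 0, and the 2 that do not are *pos-1* in *age-1* against WT (−0.57 to −0.01) and *spn-4* in *age-1; rde-4* against WT (−0.65 to −0.04), neither of which passed the test after adjustment.

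For *age-1; rde-4* against WT, all 10 members were again below 0, with a median of −0.19 and a range of −0.35 to −0.10. Scaled to the germ cell genes, 3 of 10 were below 0 with a median of 0.03, beside 0.22 for all genes. Those genes were lower here too, at a summed 2944 to 3804 CPM in the double mutant against 3832 to 4337 CPM in WT. Without replicate 1 of the double mutant, 5 of 10 members were below 0 and their median was 0.00. *spn-4* was the 1 member of 10 lower without overlap, against 11.9% of all genes tested.

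Adding *rde-4* to *age-1* gave a median of −0.04, with 7 below 0 and 3 above, and the largest differences were −0.14 (SE 0.18, *gld-1*) and 0.09 (SE 0.13, *pos-1*). The groups overlapped for all 10, where 21.7% of all genes tested had groups that did not. Without the low library the fold changes of all 10 were above 0, from 0.05 (SE 0.13, *gld-1*) to 0.29 (SE 0.15, *mex-5*), with a median of 0.18, and 0 of 10 passed the test (lowest adjusted p = 0.294, *pos-1*).

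Adding *age-1* to *rde-4* gave a median of −0.19 with all 10 below 0, from −0.32 (SE 0.27, *lin-41*) to −0.09 (SE 0.24, *mex-5*), but with 1 of 10 below 0 and a median of 0.11 when scaled to the germ cell genes. The summed level of the germ cell genes was 2944 to 3804 CPM in *age-1; rde-4* and 4047 to 4523 CPM in *rde-4*. Again the groups of all 10 members overlapped, against 20.5% of all genes that did not. Without the low library the median was −0.01 and 6 of 10 were below 0. The interaction of the mutations had a median of −0.05 (−0.21 to 0.14), and of 0.15 (0.04 to 0.30) without that library, where edgeR gave p under 0.05 before adjustment for *pos-1* and *spn-4* (adjusted p = 0.337 and 0.283).

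These comparisons share libraries, so their values are not separate pieces of evidence. The WT libraries enter all 3 comparisons with WT, and the low library enters each comparison with the double mutant. The double mutant's SDs, which include the low library, came to 41.3% of the mean for *lin-41* and 37.5% for *mex-5*. For *lin-41* the SD was 21.9% of the mean in WT, 20.3% in *rde-4* and 7.21% in *age-1*. For *mex-5* it was 18.4%, 16.96% and 5.97% in these groups.

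The levels of the members were ordered per length, as CPM per kb of exon. Over the 12 libraries the means were 421 ± 57.9 for *spn-4* and 404.99 ± 50.4 for *pos-1* (SD, n = 12), followed by 111 ± 12.47 for *mex-6*, 97.6 ± 14.1 for *mex-3*, 91.7 ± 14.6 for *gld-1*, 84.9 ± 13.6 for *oma-2* and 84.0 ± 16.4 for *mex-5*. The lowest were *pie-1* (45.6 ± 8.01), *oma-1* (28.5 ± 3.80) and *lin-41* (26.3 ± 6.0). *spn-4* and *pos-1* were not separated beyond their spread, *spn-4* being higher in 9 of 12 libraries, and neither were *oma-2* and *mex-5* (6 of 12) or *oma-1* and *lin-41* (9 of 12). The steps from *pos-1* to *mex-6* (3.41-fold to 3.73-fold), from *mex-5* to *pie-1* (1.65-fold to 2.03-fold) and from *pie-1* to *oma-1* (1.38-fold to 1.79-fold) had the same sign in all 12 libraries, as had the smaller one from *mex-6* to *mex-3* (1.03-fold to 1.44-fold). For the pairs between, *mex-3* was above *gld-1* in 10 of 12 libraries and *gld-1* above *oma-2* in 11 of 12. Without the low library the order of the means was the same, from 434 ± 39.0 for *spn-4* to 27.5 ± 4.37 for *lin-41* (SD, n = 11). These levels use the union of annotated exons as length, so they are approximate for genes with several transcripts.

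**Figure D3:**
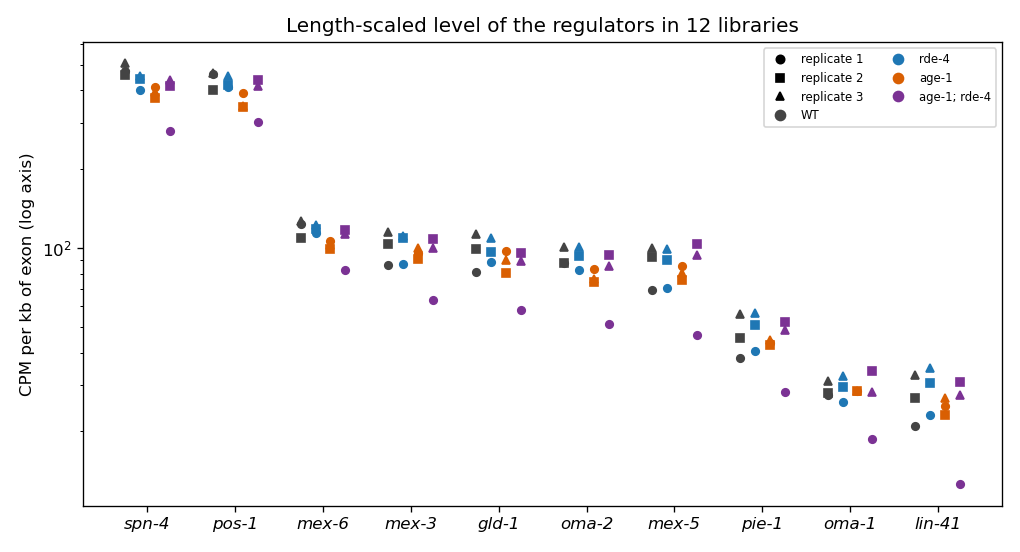
Level per length (CPM per kb of exon, log axis) of the 10 members in the 12 libraries, ordered by their mean, with colour for genotype and shape for replicate number. *spn-4* and *pos-1* lie at means of 421 and 404.99, apart from a middle group of 84.0 to 111 and from *pie-1*, *oma-1* and *lin-41* at 45.6, 28.5 and 26.3.

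The paralogs were compared next, since each pair is known to act redundantly. The level of *oma-2* was above that of *oma-1* in every library, with a CPM ratio of 2.73 ± 0.05 in WT, 2.702 ± 0.048 in *rde-4*, 2.34 ± 0.14 in *age-1* and 2.44 ± 0.14 in *age-1; rde-4* (SD, n = 3). The ratio was 2.68 to 2.79 in WT and 2.23 to 2.50 in *age-1*, so these did not overlap, and neither did the double mutant's 2.34 to 2.60 (2.38 and 2.60 without replicate 1). The log2 ratio differed by −0.23 in *age-1* and by −0.16 in *age-1; rde-4* from WT, each with p = 0.1 in a two-sided exact permutation test, the smallest p that 3 against 3 can give, and p = 0.3 after adjustment over 6 such tests. For *mex-6* over *mex-5* the ratio was 1.35 ± 0.31 in WT, 1.33 ± 0.20 in *rde-4*, 1.22 ± 0.03 in *age-1* and 1.31 ± 0.33 in *age-1; rde-4*, groups that overlapped (exact permutation p = 1.0, 0.9 and 0.7).

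Across the 12 libraries, the log2 levels of *oma-1* and *oma-2* were correlated, with Pearson's r = 0.91 (permutation p = 0.00117, adjusted over the 2 pairs 0.00234) and Spearman's rho = 0.66 (permutation p = 0.021, adjusted 0.042). Leaving out the 2 libraries farthest from the median of *oma-1*, replicates 1 and 2 of *age-1; rde-4*, gave r = 0.66 (permutation p = 0.0336). Within genotypes r was 0.97 (exact permutation of replicates within genotype, p = 0.0054). For *mex-5* and *mex-6*, r was 0.75 (permutation p = 0.0132, adjusted 0.0132) and rho 0.48 (permutation p = 0.117). The r was 0.67 without the 2 libraries farthest from the median of *mex-5* (permutation p = 0.0359). These were *age-1; rde-4* replicate 1 and WT replicate 1, where the ratio of *mex-6* to *mex-5* was highest (1.71). Within genotypes the r of *mex-5* and *mex-6* was 0.82 with an exact permutation p of 0.11, so that pair's relation did not pass when genotype means were removed. Over the 12 libraries, the median r of all 45 pairs of members was 0.91. The *oma* pair was at this median and the *mex-5* and *mex-6* pair below it, so these correlations were not particular to paralogs. Neither paralog pair was tested with the low library alone left out. Over all 45 pairs of members, r was then 0.24 to 0.98, and 0.19 to 0.98 within genotypes. The labels name no batch, so none was tested.

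**Figure D4:**
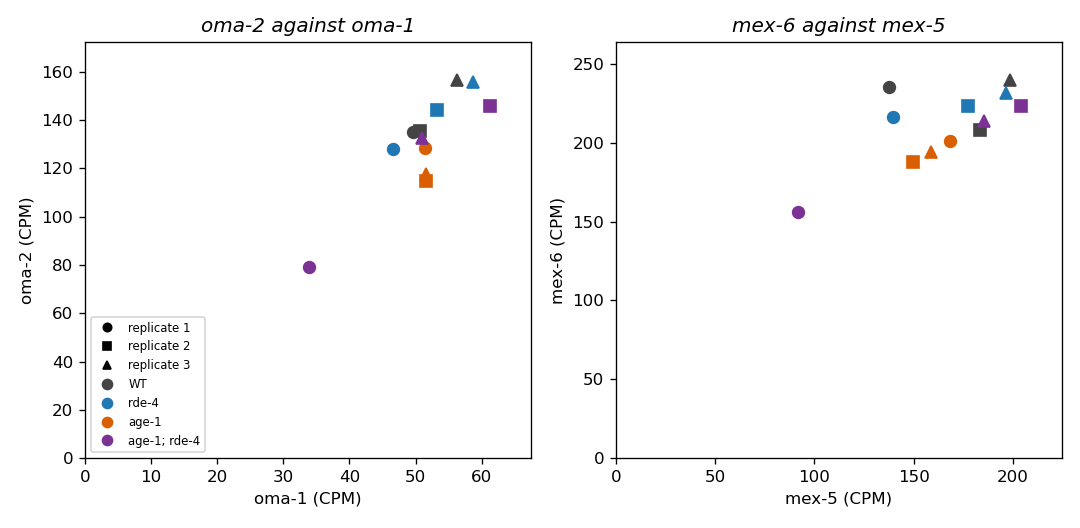
*oma-2* against *oma-1* (left) and *mex-6* against *mex-5* (right), in CPM with both axes from 0, 1 point per library, with colour for genotype and shape for replicate number. The *age-1; rde-4* replicate 1 is the lowest point on both axes of both panels (33.8 and 79.2 CPM, 91.9 and 156 CPM), and *age-1* libraries lie below WT at like *oma-1* levels.

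The members' levels were also correlated beyond the paralogs, to a degree that leaned on the low library. As a description, with no test, the r of log2 CPM over 12 libraries was 0.70 to 0.99 in the 45 pairs of members, with a median of 0.91, and 0.75 to 0.99 with a median of 0.93 once genotype means were removed. Without *age-1; rde-4* replicate 1, a description added after the data were seen, the r was 0.24 to 0.98 with a median of 0.74 over 11 libraries, and 0.19 to 0.98 with a median of 0.73 once genotype means were removed. The points share their library and so its scaling and cell makeup. *oma-2* was closest to the mean of the other members (r = 0.98) and *pos-1* farthest (r = 0.82). These were 0.91 and 0.61 without the low library, and *spn-4* was also at 0.61.

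The genes whose pattern over the 12 libraries was most like the members' mean were sought among 12405 protein-coding genes with a mean of 50 counts or more. They were *puf-3*, which encodes a Pumilio-family RNA-binding protein of oocytes (r = 0.985), *dpl-1*, the DP partner of E2F (r = 0.985), *mcm-7*, a subunit of the replicative helicase (r = 0.984), F59E12.1 (r = 0.984) and *deps-1*, a P granule protein (r = 0.984). Like the members, each had its lowest level in the low library, 167 CPM for *puf-3* against 283 CPM or more elsewhere and 122 CPM for *mcm-7* against 192 CPM or more. Of all genes compared, 6.58% had an r above 0.9, and the median r was −0.02. Over the 11 other libraries the r of these 5 genes was 0.943 to 0.950, and 0.774% of genes had an r above 0.9.

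Other germline and maternal RNA regulators, 33 genes outside the members such as the PUF, Nanos and GLD-2 families, gave the wider setting. In *age-1* against WT, 2 of 33 fell and 1 rose, and their median was −0.16, beside 0.03 for all genes tested. *nos-2*, a Nanos family gene of the embryonic germline whose maternal mRNA is bound by several of the 10 members, was at 155, 125 and 136 CPM in the WT populations and at 105, 95.2 and 102 CPM in those of *age-1* (log2 −0.46, SE 0.11, adjusted p = 0.0223). *puf-8*, a Pumilio-family gene, was at 224, 170 and 196 CPM and at 165, 146 and 153 CPM in these groups (log2 −0.34, SE 0.11, adjusted p = 0.0462). Without the low library the adjusted p of *nos-2* was 0.0153, *puf-8* no longer passed and *puf-11* did (log2 −0.27, SE 0.08, adjusted p = 0.035).

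*ncl-1*, which encodes a TRIM-NHL protein related to LIN-41 that limits nucleolar size, was the one that rose, with WT populations at 71.9, 78.3 and 88.6 CPM and *age-1* populations at 141, 127 and 120 CPM (log2 0.70, SE 0.16, adjusted p = 0.0184). It was lower again in *age-1; rde-4*, at 49.4, 81.2 and 73.7 CPM, and this fall from *age-1* was the only one of 33 to pass that comparison (log2 −0.93, SE 0.16, adjusted p = 0.0325; −0.75, SE 0.11, adjusted p = 0.0113 without the low library). In the other 4 comparisons 0 of 33 passed edgeR's test, with 0 in *rde-4* against WT, 9 in *age-1; rde-4* against WT, 7 in *age-1; rde-4* against *rde-4* and 3 for the interaction at p under 0.05 before adjustment, while DESeq2 called 0, 2, 1 and 1. Of the 16741 genes tested, 2415, 4434, 2352 and 2004 had an edgeR p that low in these 4 comparisons.

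Among 25 genes of the oocyte, the eggshell and the oocyte-to-embryo transition, 0 passed edgeR's or DESeq2's test in any comparison, and in *age-1* against WT, 4 were lower at an edgeR p under 0.05 before adjustment (0 to 2 genes in the other comparisons). Of all 16741 genes tested, 2036 were lower at such a p in *age-1* against WT. The median of the 25 genes in that comparison was −0.15, and −0.13 in *age-1; rde-4* against WT. Of 25 germ cell genes, *spo-11*, which makes meiotic double-strand breaks, fell in *age-1* against WT (log2 −0.40, SE 0.11, adjusted p = 0.0267). The Argonaute gene *csr-1* fell in *age-1; rde-4* against WT (log2 −0.46, SE 0.10, adjusted p = 0.0106) and against *rde-4* (log2 −0.44, SE 0.10, adjusted p = 0.0499). The median of this list was −0.20 in *age-1* and −0.18 in *age-1; rde-4* against WT, beside −0.13 and −0.19 for the members. With the low library left out, the oocyte genes *egg-1* and *egg-5* fell in *age-1* against WT (adjusted p = 0.046 and 0.0268) and *apx-1* rose in *age-1; rde-4* against WT (adjusted p = 0.0329). Of the germ cell genes, *prg-1* then rose in *rde-4* against WT (adjusted p = 0.0226), *spo-11* and *csr-1* fell in *age-1* against WT (adjusted p = 0.0261 and 0.0377), *csr-1* fell in *age-1; rde-4* against WT (adjusted p = 0.028), and 0 of 25 passed against *rde-4*. These genes were named after their values were seen. The medians of the 33 other regulators and of the oocyte and germ cell lists in *age-1; rde-4* against WT were then −0.05, 0.05 and −0.09.

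Markers of other cells moved with the libraries as well. On the scale of mean log2 CPM centred over the 12 libraries, the members' mean was −0.65 in *age-1; rde-4* replicate 1 and −0.13 to 0.27 in the other 11. In that library the 33 other regulators were at −0.55, the oocyte genes at −0.48, the germ cell genes at −0.32, the 6 vitellogenin genes, which encode yolk proteins made in the intestine, at −0.83, and 34 sperm genes at 0.77. The 15 early zygotic genes that were tested, which are switched on in embryos, were at −1.17 there and at 1.33 and 1.08 in the other 2 double mutant populations. They were at −0.66, −0.89 and −0.38 in the *age-1* populations and at −0.15 to 0.61 in those of WT and *rde-4*. The low library held the lowest level of 27 of the 33 other regulators, 20 of 25 oocyte genes, 16 of 25 germ cell genes and 6 of 6 vitellogenin genes, but of 2 of 34 sperm genes. The part of these shifts in the members' levels was not tested.

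Sperm genes differed between the groups too. The summed CPM of the list in the WT populations was 134 to 307, that of the *rde-4* populations 234.7 to 499, that of the *age-1* populations 488 to 607 and that of the double mutant 370 to 554. Of its genes, 8, 23 and 15 of 34 rose against WT in *rde-4*, *age-1* and the double mutant, while 1 fell in the last. These counts were 8, 25 and 10 without the low library, and again 1 fell in the last. The summed level of the germ cell genes was 3832 to 4337 CPM in WT and 3360 to 3678 CPM in *age-1*, without overlap. The part of either in the members' levels was not tested.

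**Figure D5:**
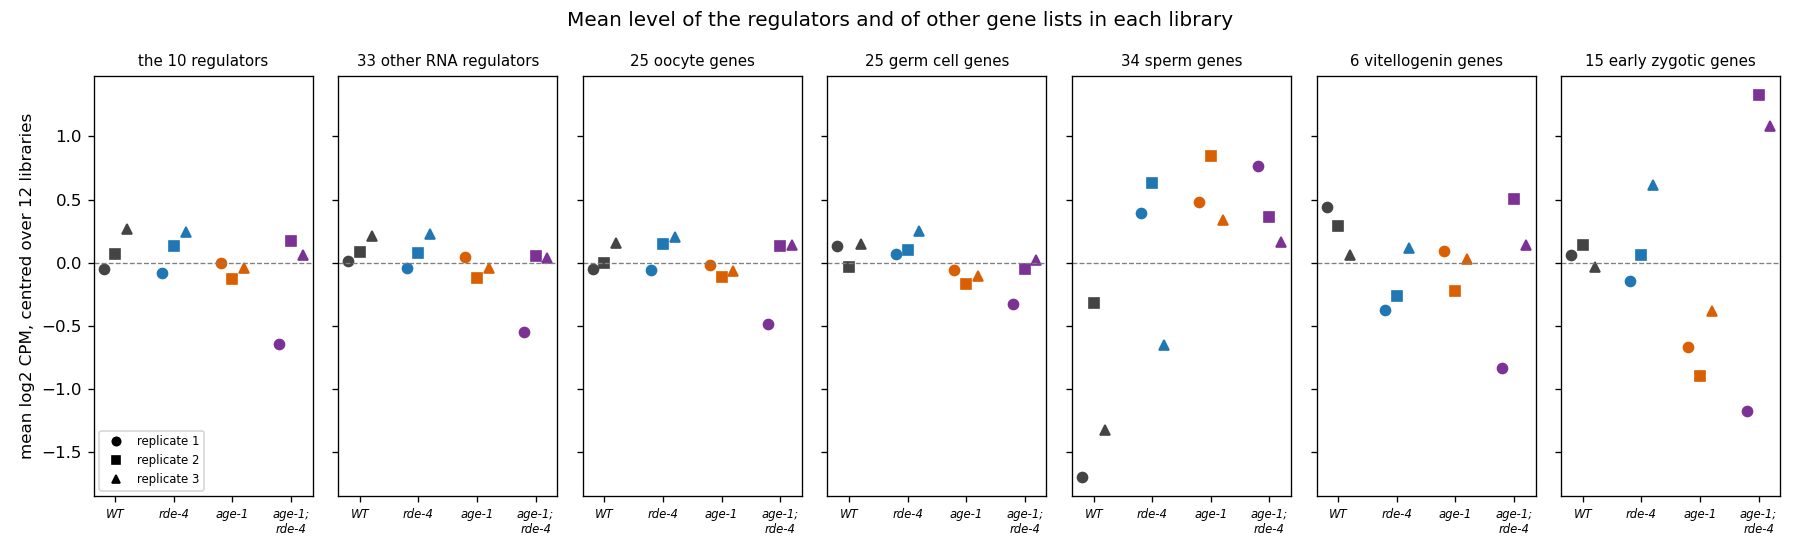
Mean log2 CPM, centred over the 12 libraries, of the 10 members and of 6 other gene lists (panels), 1 point per library, with colour for genotype and shape for replicate number. The *age-1; rde-4* replicate 1 is lowest for the members (−0.65), the other RNA regulators, the oocyte, germ cell, vitellogenin and early zygotic lists, and is among the high libraries for the sperm genes (0.77).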

How the data were processed

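Total RNA of 12 populations of young adult worms was depleted of ribosomal RNA and sequenced from strand-specific libraries. Reads were aligned by the authors to the WBcel235 genome with HISAT2 2.0.5, StringTie was used for quantification, and the deposited table holds raw read counts per gene, with no normalization and no unused sample columns (0). The labels and the study's methods describe the replicates as independent populations, so p-values concern the spread between populations. Within each group the chi-square of counts between replicates was 37.4 to 262 per gene, so no library was a copy of another.

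The tests were run on the counts with edgeR 4.0.16 in R 4.3.3: filterByExpr with its defaults, TMM scaling, and 1 quasi-likelihood model of the 4 groups over 12 libraries (estimateDisp, glmQLFit, glmQLFTest, two-sided), with p-values adjusted by Benjamini and Hochberg over 16741 genes and a threshold of 0.05. Levels are CPM, and the r values used log2 CPM with a prior count of 2, or log2 CPM with none for the paralogs. Correlations of the paralogs were tested with 100000 permutations, and ratios and within-genotype correlations by exact permutation, in Python 3.11.15 with scipy 1.17.1. The fitting code was tested on simulated data, with 50 genes changed at each size in *age-1* against WT. It called 2% of 1.25-fold, 8% of 1.5-fold, 28% of 2-fold and 78% of 4-fold changes. The changed genes were drawn from all genes tested and not from the members. A count of 0 called thus says little about changes as small as 1.25-fold.

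Identifiers were matched by locus tag (45305) or transcript (876), and 472 were unmatched. The 5 likest genes had the highest r with the mean of the members, and genes named from the other lists are those past the threshold. The members and the gene lists were chosen with earlier results of these data known. Alternatives were RLE size factors, DESeq2 1.42.0, no filter, a mean of 50 counts, only the groups compared, a replicate block, scaling to germ cell genes, protein-coding genes alone and each library left out, and, for descriptions and other lists, the low library left out, chosen after the data were seen.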

Additional observations from a re-analysis of the deposited data

How the results depend on the processing

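The counts of members called were 0 in each of the 6 comparisons and kept that value in 118 of the 119 pairs of a comparison and an alternative that were run. The exception was *age-1* against WT without *age-1; rde-4* replicate 1, where 2 members, *pos-1* and *spn-4*, were called lower, so that leaving out each library in turn gave 0 to 2. In that fit 2998 of 17114 genes tested were called, in either direction. The cause of the exception was not tested. For the correlation of *mex-5* with *mex-6*, the r of 0.75 was 0.82 on residuals from the genotype means, with an exact permutation p of 0.11, and no longer past the threshold. Fold changes of members that changed sign without a call on either side were counted as unchanged calls.

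Leaving out each library in turn, the members' median ran from −0.06 to 0.08 in *rde-4* against WT, from −0.23 to −0.02 in *age-1* against WT, from −0.31 to 0.00 in *age-1; rde-4* against WT, from −0.19 to 0.18 in *age-1; rde-4* against *age-1*, from −0.32 to −0.01 in *age-1; rde-4* against *rde-4* and from −0.21 to 0.15 for the interaction. With the replicate block, 0 members were called in each comparison, with medians of 0.00, −0.10, −0.20, −0.07, −0.20 and −0.09 in that order, while the calls over all genes went from 752 to 1186, 2478 to 4594, 2029 to 3339, 71 to 264, 266 to 788 and 19 to 86. The labels give no meaning to a shared replicate number. The deviations of same-numbered libraries from their group means correlated at −0.02 to 0.37 with a median of 0.16, and 12 of 18 were over 0.1. Each try asked which of the 3 libraries of another group a library was closest to. It was the one with its own number in 27 of 36 tries, which hints at a shared number in the data. However, no 2 groups that were compared had all 3 of their same-numbered pairs over 0.1, the criterion for pairing used here. The block was therefore kept as an alternative. Counting error was at most 1.97% of a member's value, and the standard errors of the members were 0.12 to 0.27 on the log2 scale in the comparisons of 2 groups.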
